A study of Mus musculus with 12 samples.

Results

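Perilipins are the coat proteins of lipid droplets, the organelles in which cells store triglycerides and sterol esters, and the genes described here are Plin2, Plin3, Plin4 and Plin5 together with Angptl4, which encodes a secreted inhibitor of lipoprotein lipase. These 5 genes were taken by name from the 32285 genes of the expression matrix and followed over the 12 cell types of the authors' annotation and the 4 groups. They were selected on earlier results of the same data, so their levels and their differences between groups are given as a description, with estimates and errors and without p-values.

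A droplet grows as triglyceride synthesis adds neutral lipid to its core, and it shrinks when lipases reach its surface. Perilipins sit on that surface and set the access of lipases. Plin2 is the common coat of most cell types, Plin3 is a largely cytosolic form that binds young droplets, Plin4 is best known from adipocytes, where it coats nascent droplets, and Plin5 belongs to tissues that burn fat and ties droplets to mitochondria. Angptl4 acts on the supply side, since lipoprotein lipase frees fatty acids from circulating lipoproteins at the vessel wall. In the brain, droplets are best known from glia and ependymal cells. Several of these genes are known targets of the PPAR nuclear receptors, and Angptl4 is also a target of the glucocorticoid receptor and responds to hypoxia.

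Hippocampi came from female C57/BL6J mice, 9 weeks old, injected with the chemotherapy agent cisplatin or, as controls, with the buffer PBS. Some groups of each kind also received GENUS, light flicker and sound at 40 Hz, for 1 h on each of 21 days, and tissue was taken on day 22. The 4 groups hold 3 single-cell libraries each, and values listed in group order give PBS nonstim first, then PBS stim, then Cisplatin nonstim and last Cisplatin stim. Replicate 1 of every group held 2 hippocampi of 1 animal (the first batch), and replicates 2 and 3 held 4 hippocampi pooled from 2 animals (the second batch). No genotype other than the strain is labelled, and cells came from a neural tissue dissociation kit after perfusion with cold buffer.

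Between 611 and 2772 cells were held by a library, with 3964338 to 17656020 unique molecular identifiers (UMIs, which stand for counted transcripts). The median share of mitochondrial transcripts in a cell was 10.7 to 17.6% in first-batch libraries and 3.19 to 5.12% in second-batch ones. Transcripts that resemble ribosomal RNA made up 0.34 to 3.65% of a library and were highest in second-batch PBS libraries. In that batch they made up 1.87 to 3.65% of PBS libraries and 0.417 to 0.782% of cisplatin ones. A covariate for this share therefore partly stands for the drug. Of 19778 distinct cell barcodes, 56 occurred in more than 1 library. Levels are given as CPM, the UMIs of a gene summed over all cells of a type in a library and scaled by all UMIs of those cells. Because the chemistry counts transcript 3' ends, CPM is not scaled by gene length. All 5 markers set for each of 9 cell types were highest in that type, as were the 4 used for oligodendrocytes, and 4 of 5 were for neurons and fibroblasts.

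The members occupied different cell types. Of all Plin4 UMIs, 87.2% (1153 of 1323) lay in oligodendrocytes, the myelinating cells, and of all Plin3 UMIs 52.3% (4682 of 8959) did. Plin5 was rare, with 208 UMIs in all, of which 103 lay in the 173 ependymal cells that line the ventricles. Angptl4 UMIs lay mostly in endothelium (41.6% of 1014), astrocytes (29.5%) and pericytes (203 UMIs). Plin2 was spread most widely, with 24.7% of its 2465 UMIs in endothelium and 22.2% in microglia.

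**Figure D1:**
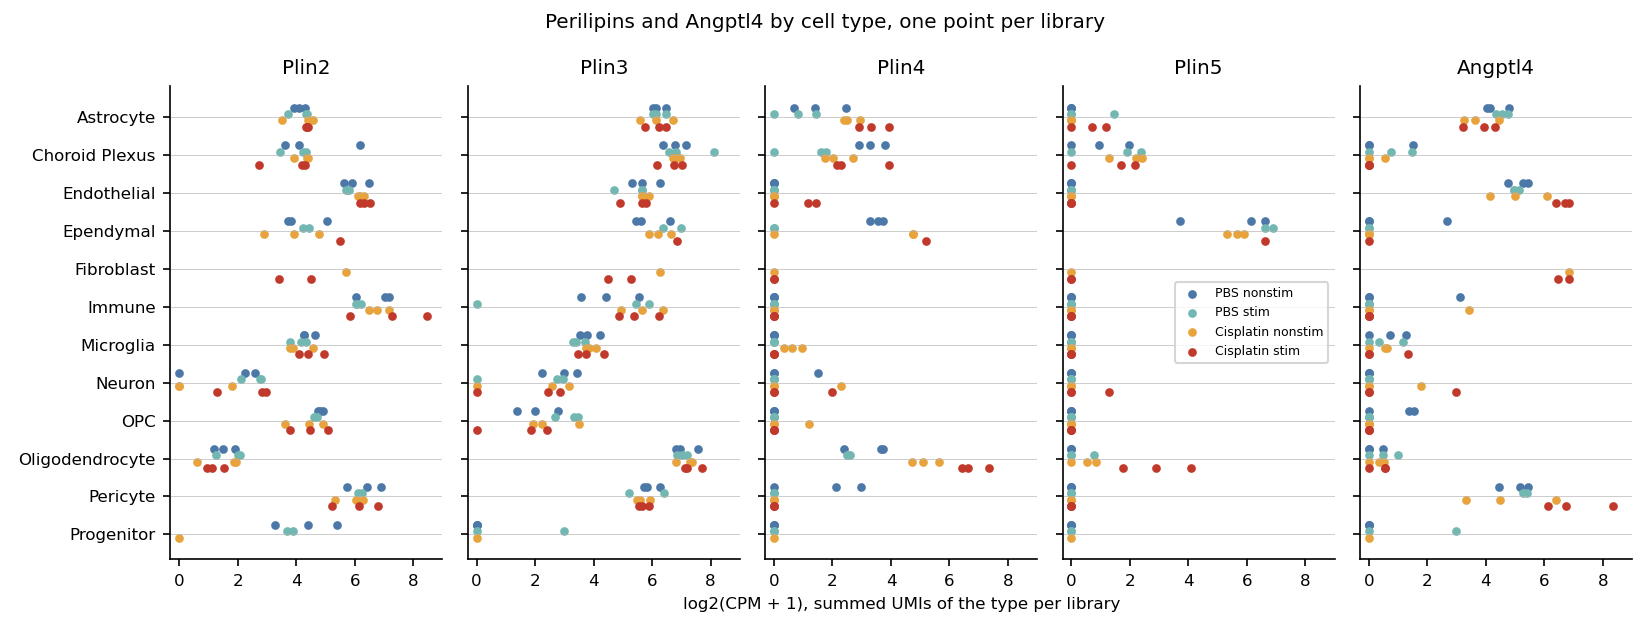
Level of each member, as log2(CPM + 1) on the horizontal axis, in the 12 cell types on the vertical axis, with one point per library that held at least 10 cells of the type, coloured by group. Plin4 spreads from 4.25 to 164 CPM in oligodendrocytes, Plin5 is highest in ependymal cells, and Angptl4 has its highest medians in fibroblasts, pericytes, endothelium and astrocytes.

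Ordered by the median over libraries, Plin2 was highest in immune cells (98.6 CPM, range 55.8 to 356), endothelium (70.1, range 48.8 to 90.0) and pericytes (69.2, range 36.0 to 119). These 3 types overlapped one another, and pericytes stood above the next type, oligodendrocyte precursors (OPCs, 11.2 to 33.3). Oligodendrocytes came last for Plin2, with a median of 1.87 CPM and a range of 0.528 to 3.23. For Plin3 the order began with oligodendrocytes (median 141 CPM, range 111 to 208) and choroid plexus (111, range 70.9 to 279), the tissue that makes cerebrospinal fluid, and these overlapped. Its median was 12.5 CPM in microglia and 3.98 in OPCs, the precursors of oligodendrocytes.

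Plin4 had its highest median in oligodendrocytes (18.9 CPM), followed by ependymal cells (10.7), astrocytes (4.38) and choroid plexus (3.69), and each of these neighbours in the order overlapped the next. Its median was 0 in the other 8 types. Plin5 had a median of 69.7 CPM in ependymal cells (range 12.1 to 117, 9 libraries), which stood above choroid plexus, the next type (median 2.47, range 0 to 4.35). Angptl4 was highest in fibroblasts (86.7 to 115 CPM in the 3 libraries with enough cells), then pericytes (median 41.9), endothelium (35.7) and astrocytes (17.7), and astrocytes stood above microglia (median 0.382).

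A count filter on low values, applied within each of the 9 cell types that could be compared between groups, kept 17 of the 45 pairs of a member and a type. It kept Plin2 in 7 types, Plin3 in 6, Angptl4 in 3, Plin4 in 1 and Plin5 in none. An edgeR quasi-likelihood fit over all genes of a type then gave each difference as a log2 fold change with its standard error (SE), and a gene was called where its Benjamini-Hochberg adjusted p was under 0.05. Between Cisplatin nonstim and PBS nonstim 1 of the 17 pairs was called, where 1.64% of all gene and type pairs were. Between Cisplatin stim and Cisplatin nonstim 1 of 17 was called, against 0.196% of all. Between Cisplatin stim and PBS stim 2 of 17 were called, against 3.89%. The interaction, which asks whether stimulation differed between the drug arms, was called for 1 of 17, against 0.0245%. Between PBS stim and PBS nonstim 0 of 17 were called by edgeR and by DESeq2, against 0% of all, and 1 had an unadjusted p under 0.05. Because these contrasts chose the members, nothing is read from the shares.

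**Figure D2:**
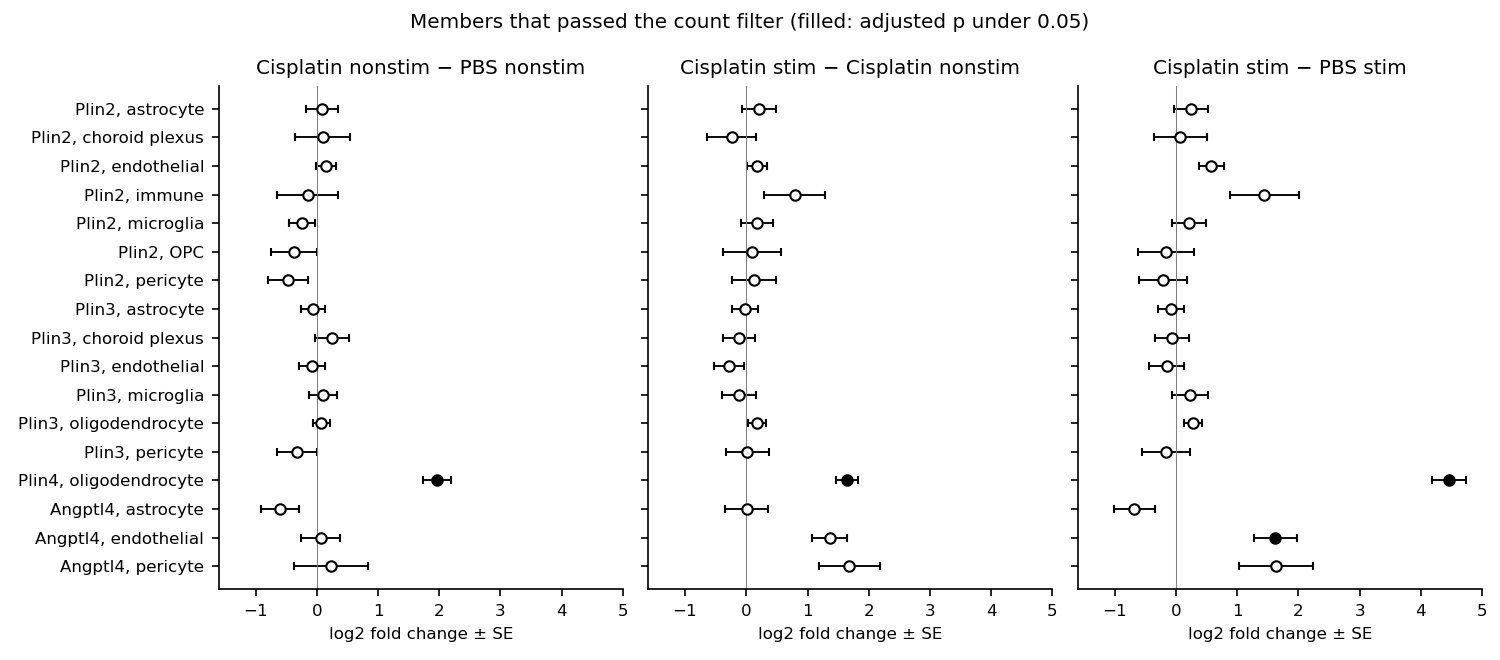
Fitted log2 fold changes (horizontal axis, whiskers 1 SE) of the 17 pairs of a member and a cell type that passed the count filter, in 3 comparisons of groups of 3 libraries each (2 for PBS stim in pericytes). Filled points had an adjusted p under 0.05: Plin4 in oligodendrocytes in all 3 panels and Angptl4 in endothelium in the right panel.

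Plin4 in oligodendrocytes was called in 4 of the 5 comparisons. Its level was 11.6, 12.3 and 4.25 CPM in the 3 PBS nonstim libraries and 5.05, 4.61 and 4.84 CPM in PBS stim. It was 48.5, 33.3 and 25.4 CPM in Cisplatin nonstim and 164, 98.8 and 85.8 CPM in Cisplatin stim. All Cisplatin nonstim libraries lay above all PBS libraries, and all Cisplatin stim libraries lay above all others. Within the fit, Plin4 was higher by 1.96 ± 0.23 (log2, SE) in Cisplatin nonstim than in PBS nonstim, a fold of 3.90, in a comparison where 6.25% of 10094 oligodendrocyte genes were called. It was higher by 1.65 ± 0.18 in Cisplatin stim than in Cisplatin nonstim, a fold of 3.13 (0.991% called), and by 4.46 ± 0.27 in Cisplatin stim than in PBS stim (14.5% called). The first and last of these share no libraries, while the others share a group.

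In PBS mice the estimate for stimulation was −0.85 ± 0.37 (−0.33 ± 0.32 without PBS nonstim replicate 2) and was not called, and the PBS groups overlapped. The interaction was 2.50 ± 0.40 and was called, in a contrast where 0.0892% of oligodendrocyte genes were. It was not called without a term for batch (2.60 ± 0.62) or without PBS stim replicate 3 (2.58 ± 0.47). The difference between Cisplatin nonstim and PBS nonstim was not called with the ribosomal RNA-like share added as a covariate (1.99 ± 0.43). Between Cisplatin nonstim and PBS nonstim, 6.15% of the genes had all 3 libraries above all 3 of the other group, and between Cisplatin stim and Cisplatin nonstim 6.35% did. Such shares were not counted for other comparisons or cell types, so groups without overlap there are only described.

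The ratio of levels was above 1 for every replicate number. Cisplatin stim over Cisplatin nonstim gave 3.38, 2.97 and 3.37 for replicates 1, 2 and 3. Cisplatin nonstim over PBS nonstim gave 4.17, 2.70 and 5.99. In the second batch alone the fit gave 1.88 ± 0.27 for the drug in unstimulated mice, 1.63 ± 0.21 for stimulation in cisplatin mice and 2.42 ± 0.46 for the interaction, and each was called. The first batch held 1 library per group, so its ratios have no test. The oligodendrocyte markers Mbp, Mog, Mag and Mobp, all 4 detected in every group, summed to 11117 to 13064 CPM in oligodendrocytes of the PBS libraries and 12301 to 14736 CPM in those of the cisplatin libraries. These ranges overlap, and such a sum depends on which myelin genes it holds, so no direction is drawn from it. Their part in the Plin4 difference was not tested.

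**Figure D3:**
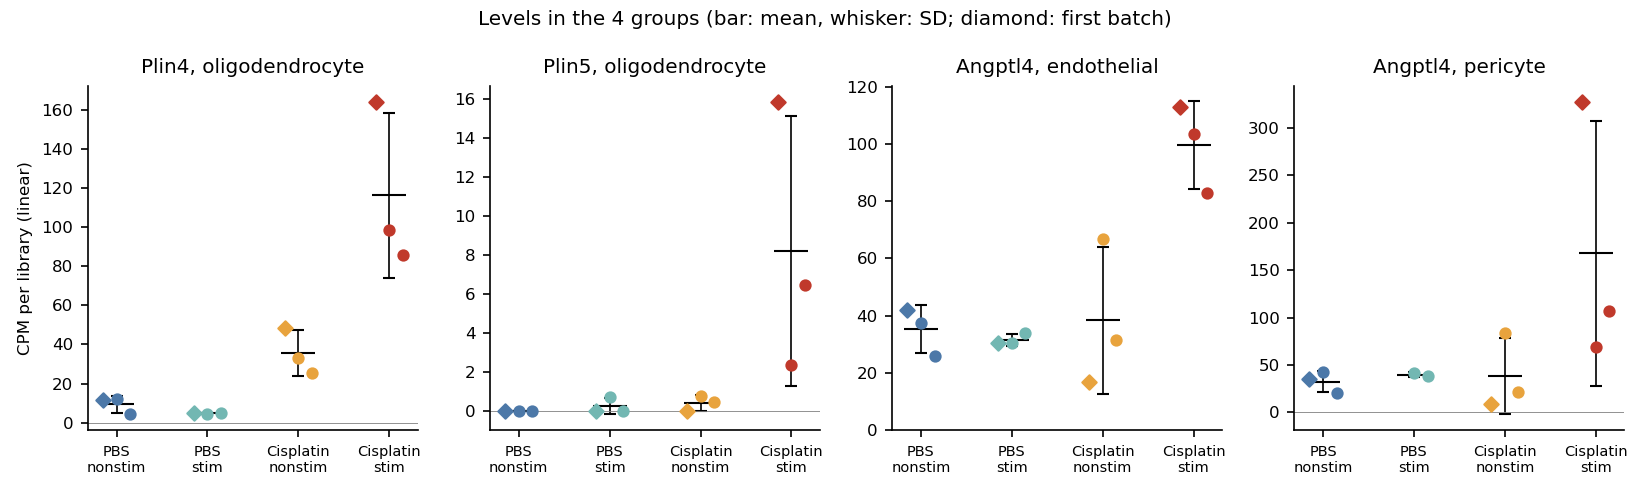
CPM per library (linear vertical axes) of Plin4 and Plin5 in oligodendrocytes and of Angptl4 in endothelium and pericytes, by group, with diamonds for the first batch, circles for the second, a bar for the mean and whiskers for the SD. Cisplatin stim holds the highest library in every panel, and the first-batch library is its highest.

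Both the share of cells with Plin4 and the UMIs per such cell were higher. At least 1 Plin4 UMI was found in 5.74% of 1637 oligodendrocytes in PBS nonstim (exact 95% binomial interval 4.66 to 6.98) and in 2.83% of 988 in PBS stim (1.89 to 4.07). The share was 18.6% of 1293 in Cisplatin nonstim (16.6 to 20.9) and 44.1% of 759 in Cisplatin stim (40.6 to 47.8). These intervals cover counting error only, since cells of a library are not replicates. By library the Cisplatin stim shares were 51.6, 41.9 and 36.7%, and the highest of any other library was 20.2%. Among cells with a Plin4 UMI the mean was 1.16, 1.07, 1.33 and 2.07 UMIs in the same order of groups, and 11.3% of all Cisplatin stim oligodendrocytes held 3 or more.

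The groups kept this order at equal depth. The median UMIs per oligodendrocyte were 7349, 5810, 6942 and 8005 in group order. With each cell thinned to 2000 UMIs, which left out 121, 159, 123 and 43 shallower cells, the shares were 2.04, 1.09, 6.32 and 20.3%. In microglia 0, 0, 0.356 and 0% of cells had a Plin4 UMI at median depths of 6101, 4964, 6681 and 7451 UMIs.

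**Figure D4:**
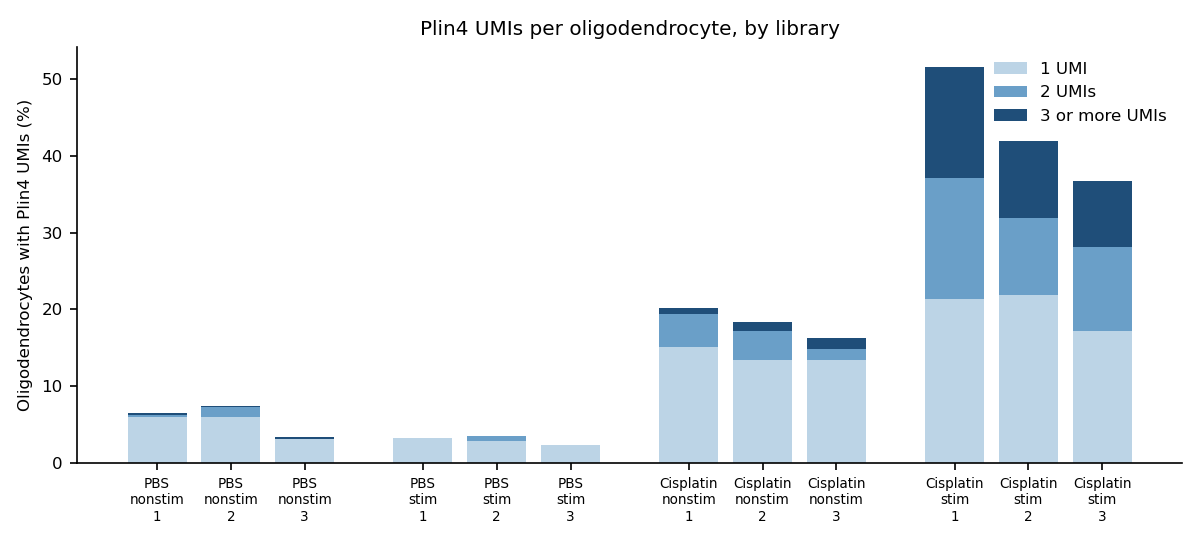
Share of oligodendrocytes with 1, 2 or at least 3 Plin4 UMIs (stacked bars, percent of all oligodendrocytes of the library, axis from 0) in each of the 12 libraries. The 3 Cisplatin stim libraries reach 36.7 to 51.6%, and most cells with 3 or more UMIs lie in them.

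The difference ran through the oligodendrocyte clusters of the authors. In cluster 2 the Plin4 mean was 12.3 ± 8.43 CPM in PBS nonstim (SD, n = 3), 9.20 ± 5.21 in PBS stim, 41.4 ± 9.96 in Cisplatin nonstim and 98.1 ± 38.4 in Cisplatin stim. In cluster 7 the means were 12.9 ± 11.6, 2.37 ± 2.45, 35.4 ± 1.83 and 160 ± 20.1 CPM in the same order. Cluster 8, which had the lowest Plin4 of the 3 in every group, had 4.55 ± 2.73, 1.63 ± 1.43, 13.9 ± 6.39 and 85.5 ± 33.2 CPM. In cluster 11, 1 library per group held at least 10 cells, and their levels were 14.1, 6.77, 61.2 and 182 CPM. The clusters were built from the same cells, so they are a description and carry no test.

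Astrocytes held Plin4 at a lower level, and its highest values there were again those of Cisplatin stim libraries. Plin4 stood at 4.55, 1.62 and 0.621 CPM in PBS nonstim astrocytes, 0, 0.768 and 1.72 in PBS stim, 4.21, 4.69 and 6.71 in Cisplatin nonstim and 14.3, 9.03 and 6.45 in Cisplatin stim. These rest on 70 UMIs in all, and the 2 cisplatin groups overlapped. The pair did not pass the count filter, so no difference was fitted. Cells with a Plin4 UMI made up 1.15, 0.511, 3.08 and 6.04% of astrocytes in the 4 groups, against 0, 0, 0.448 and 0% of OPCs.

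Oligodendrocyte transcripts were also counted in astrocytes. The 4 markers summed to 213 to 1278 CPM there, with all 4 detected in every group. In astrocytes Plin4 UMIs per 1000 marker UMIs exceeded the oligodendrocyte ratio in 9 of 12 libraries. Choroid plexus, with 67 Plin4 UMIs, exceeded it in 10 of 12 libraries. OPCs, whose marker sum was 118 to 976 CPM, held 1 Plin4 UMI and exceeded it in 0 of 12 libraries. Endothelium, at 93.4 to 823 CPM of markers, held 2 UMIs, and microglia, at 155 to 1042 CPM, held 4. The number of libraries above the oligodendrocyte ratio depends on the markers summed, and the part of oligodendrocyte RNA in the astrocyte Plin4 level was not tested further.

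Choroid plexus did not share the order of groups. Its Plin4 level was 13.0, 8.79 and 6.56 CPM in PBS nonstim and 0, 2.04 and 2.47 in PBS stim. It was 5.44, 3.09 and 2.39 CPM in Cisplatin nonstim and 14.2, 3.89 and 3.49 in Cisplatin stim. PBS nonstim lay above PBS stim and above Cisplatin nonstim without overlap, on 2 to 7 UMIs per PBS nonstim library. Ependymal cells held 17 Plin4 UMIs in the 9 libraries with enough cells, and the groups were not compared there.

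Plin5 was nearly absent from oligodendrocytes outside 1 group. PBS nonstim libraries had 0 Plin5 UMIs, PBS stim libraries 0, 2 and 0, and Cisplatin nonstim libraries 0, 3 and 1. Cisplatin stim libraries had 33, 4 and 14 UMIs, or 15.9, 2.37 and 6.46 CPM. Over all their cells the median mitochondrial share was 17.6, 5.12 and 4.98%, the first being the highest of any library. Plin5 did not pass the count filter, so no fit without high-mitochondrial cells covers it. Each Cisplatin stim library lay above each of the other 9, whose highest level was 0.793 CPM. Every oligodendrocyte library of the other groups was at or under 3 counts, so no fold is given against them.

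The share of oligodendrocytes with Plin5 was 0 of 1637 in PBS nonstim (exact upper limit 0.225%), 0.202% in PBS stim, 0.309% in Cisplatin nonstim and 5.40% in Cisplatin stim (3.90 to 7.26). In the first-batch Cisplatin stim library it was 8.55%, and 1.90 and 4.49% in the others. Of the 41 Cisplatin stim cells with Plin5, 24 also held Plin4 (58.5%), while 44.1% of all Cisplatin stim oligodendrocytes did. Of these 41 cells, 26 lay in the first-batch library, where 51.6% of oligodendrocytes held Plin4. The cells were not thinned to equal depth for this count, so nothing is read from the difference. The ependymal markers Foxj1, Ccdc153, Tmem212, Dynlrb2 and Rarres2 summed to 30.8 to 56.8 CPM in Cisplatin stim oligodendrocytes and 35.1 to 57.6 CPM in those of the other groups, and Ccdc153 was at 0 in both stimulated groups.

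In ependymal cells, where Plin5 was highest, its level was 12.1, 96.7 and 69.7 CPM in PBS nonstim and 97.7 and 117 CPM in 2 PBS stim libraries. It was 39.1, 49.5 and 59.1 CPM in Cisplatin nonstim and 97.4 CPM in 1 Cisplatin stim library. Each rests on 1 to 22 UMIs from 11 to 26 cells, and the PBS stim and Cisplatin stim libraries lay just above the highest PBS nonstim library. The type kept too few libraries for a fit.

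Plin3, in contrast, had high levels in oligodendrocytes and no call in any comparison. Its oligodendrocyte level was 191, 111 and 124 CPM in PBS nonstim, 115, 144 and 129 in PBS stim, 162, 112 and 154 in Cisplatin nonstim and 208, 138 and 145 in Cisplatin stim. The groups overlapped in each comparison. The estimates were 0.07 ± 0.14 for Cisplatin nonstim against PBS nonstim (−0.04 without Cisplatin nonstim replicate 3), 0.17 ± 0.15 for Cisplatin stim against Cisplatin nonstim and 0.29 ± 0.15 for Cisplatin stim against PBS stim.

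Plin3 instead varied between oligodendrocyte clusters. In cluster 8 its mean was 361 ± 166 CPM in PBS nonstim (SD, n = 3), and Cisplatin nonstim had 354 ± 75.7 CPM. In cluster 2 it was 56.1 ± 10.6 and 50.5 ± 8.12 CPM, and in cluster 7 it was 42.9 ± 14.7 and 50.4 ± 6.94 CPM. Cluster 8 had the highest Plin3 and the lowest Plin4 of these 3 in both groups. Plin3 serves as a cargo receptor for the mannose 6-phosphate receptors as well as a droplet coat, and the data do not separate these roles. In the other 5 types kept by the filter, its estimates lay between −0.32 and 0.25 for cisplatin without stimulation.

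Plin2 was called in none of its 7 types in any comparison. In endothelium its level was 88.7, 58.8 and 48.8 CPM in PBS nonstim, 55.6, 50.7 and 54.0 in PBS stim, 79.3, 71.6 and 68.8 in Cisplatin nonstim and 79.2, 90.0 and 71.4 in Cisplatin stim. All Cisplatin stim libraries lay above all PBS stim libraries, with an estimate of 0.58 ± 0.20 that was not called and was 0.22 ± 0.35 with the ribosomal RNA-like covariate. In the other comparisons the endothelial groups overlapped.

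In immune cells Plin2 reached 356 CPM in the first-batch Cisplatin stim library, on 38 UMIs, and 55.8 and 155 CPM in the other Cisplatin stim libraries. The PBS stim libraries had 72.8, 65.9 and 65.1 CPM, and the estimate between these groups, 1.45 ± 0.57, was not called. It was 0.73 ± 0.50 without that first-batch library and 2.52 ± 0.94 with the covariate. The immune type joins cells of different kinds. In cluster 15 the Plin2 mean was 166 ± 16.1 CPM in PBS nonstim (n = 2), and in cluster 14 it was 44.5 ± 39.2 CPM (n = 3).

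Angptl4 in endothelium was highest in Cisplatin stim. Its level was 42.1, 37.5 and 25.9 CPM in PBS nonstim, 30.3, 30.4 and 33.9 in PBS stim, 16.8, 66.8 and 31.4 in Cisplatin nonstim and 113, 104 and 82.7 in Cisplatin stim. Every Cisplatin stim library lay above every other library, while the other 3 groups overlapped. The share of endothelial genes that lay apart in this way was not counted. Cisplatin stim was above PBS stim by 1.63 ± 0.35 (log2, SE), and this was called, in a comparison where 2.53% of 8145 endothelial genes were. Above Cisplatin nonstim the estimate was 1.36 ± 0.29, which was not called, where 0.16% of the genes were. Cisplatin nonstim against PBS nonstim gave 0.07 ± 0.32, and over the alternatives its direction turned, from −1.24 with the ribosomal RNA-like covariate to 0.51 without Cisplatin nonstim replicate 1. The interaction gave 1.56 ± 0.48 without a call.

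The call against PBS stim was lost without PBS stim replicate 2 (1.59 ± 0.43), PBS stim replicate 3 (1.64 ± 0.45) or Cisplatin stim replicate 2 (1.60 ± 0.40). With the ribosomal RNA-like share as a covariate it was lost and the estimate was 0.46 ± 0.63. In the second batch alone the estimate was 1.49 ± 0.31 and was called, while the estimate against Cisplatin nonstim was 0.90 ± 0.26 and the interaction 0.98 ± 0.44, neither called. Against Cisplatin nonstim, the estimate was called in 3 of the 12 fits that left out 1 library. These were the fits without Cisplatin nonstim replicate 2 (2.05 ± 0.27), PBS nonstim replicate 1 (1.35 ± 0.28) and PBS nonstim replicate 2 (1.36 ± 0.29).

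The share of endothelial cells with Angptl4 was 16.8% of 423 in PBS nonstim (13.3 to 20.7), 11.6% of 302 in PBS stim (8.21 to 15.7), 17.5% of 480 in Cisplatin nonstim (14.2 to 21.2) and 34.9% of 229 in Cisplatin stim (28.8 to 41.5). In microglia it was between 0.154 and 0.437%. Median depth was 3454.5 to 5804 UMIs per endothelial cell and 4964 to 7451 UMIs per microglial cell, and microglia were the deeper type in each group. With cells thinned to 2000 UMIs the endothelial shares were 6.33, 7.62, 6.91 and 13.9%. Pericytes wrap the same vessels, and their 5 markers, all detected in every group, summed to 472 to 899 CPM in endothelium, with 515 to 819 CPM in Cisplatin stim inside that range. Fibroblast markers summed to 5.10 to 12.2 CPM in Cisplatin stim endothelium, with Dcn, Col1a1 and Lum at 0, and to 8.82 to 55.8 CPM in the other groups.

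The cells typed as pericytes also held endothelial transcripts. The 5 endothelial markers, all detected in every group, summed to 8970 to 12865 CPM in them, against 14667 to 18674 CPM in endothelium, and pericyte markers to 7106 to 14338 CPM. In Cisplatin stim the endothelial sum was 8970 to 11018 CPM. How much of the Angptl4 in this type came with endothelial transcripts was not tested. Its 3 Cisplatin stim libraries had 328, 68.8 and 107 CPM of Angptl4, where endothelium had 113, 104 and 82.7. In pericytes Cisplatin nonstim had 8.97, 84.1 and 21.6 CPM. PBS nonstim had 34.9, 42.2 and 20.7 CPM, and the 2 PBS stim libraries with enough cells had 41.9 and 38.1. The estimate was 1.68 ± 0.50 above Cisplatin nonstim and 1.64 ± 0.60 above PBS stim, and neither was called. Without Cisplatin nonstim replicate 2 the first estimate was 3.62 ± 0.55 and was called, without Cisplatin stim replicate 1 it was 0.71 ± 0.43, and in the second batch alone it was 0.56 ± 0.39. The second estimate was 1.16 ± 0.43 in the second batch alone and 0.63 ± 0.98 with the covariate. The ratio of Cisplatin stim to Cisplatin nonstim was 36.5 in replicate 1, 0.818 in replicate 2 and 4.95 in replicate 3, so replicate numbers gave both directions.

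Astrocytes had no Angptl4 call. Their Angptl4 level was 16.7, 26.8 and 15.5 CPM in PBS nonstim, 22.4, 19.2 and 25.8 in PBS stim, 21.1, 11.4 and 8.63 in Cisplatin nonstim and 18.8, 14.2 and 8.29 in Cisplatin stim. All Cisplatin stim libraries lay under all PBS stim libraries, with an estimate of −0.68 ± 0.33 that was not called. It was −1.05 ± 0.40 in the second batch alone and −0.39 ± 0.43 with the covariate, also not called. Differences between cell types in these estimates were not tested.

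By position, 4 of the members lie on mouse chromosome 17 and Plin2 lies on chromosome 4 (GRCm38, GENCODE M21). Plin4 spans 56100591 to 56109803 and Plin5 56111601 to 56117596, both on the minus strand and 1797 bases apart. Plin3 lies 159.9 kb further on, at 56277476 to 56292873. Angptl4 spans 33773750 to 33781830 and Plin2 86648386 to 86670060. The neighbouring gene Hdgfl2, on the plus strand, shares 17 bases with the 3' end of Plin4. Strand use in counting is not stated in the sources, and the assignment of reads in those bases was not tested. No 31-base word of the Plin4 transcripts occurs in transcripts of another gene, and Plin2 has the largest such fraction of the members, 0.0505.

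Of 13 other genes between Chaf1a and Kdm4b around the 3 perilipins, 7 could be tested in oligodendrocytes, and 2 were higher in Cisplatin nonstim than in PBS nonstim. Hdgfl2, a chromatin reader of the HDGF family, rose by 0.56 ± 0.16 on the log2 scale (edgeR, Benjamini-Hochberg adjusted p = 0.0412), a call kept in 11 of 21 alternatives of the processing. Ubxn6, a cofactor of the ATPase p97, rose by 0.49 ± 0.11 (edgeR adjusted p = 0.0143), kept in 15 of 21. Both also rose between Cisplatin stim and PBS stim, by 1.01 ± 0.18 (edgeR adjusted p = 0.000507) and 0.44 ± 0.12 (edgeR adjusted p = 0.0184), calls kept in 21 and 15 of 21. Stimulation in cisplatin mice gave 0 calls among the 7 by edgeR and by DESeq2, 2 with an unadjusted p under 0.05, and estimates from −0.56 to 0.66. Of all oligodendrocyte genes, 6.25, 14.5 and 0.991% were called in these comparisons, in the order given. With 7 genes tested, nothing is read about the region from these counts. Lrg1, the next gene beyond Plin5, had 8 UMIs in oligodendrocytes, at 0 to 2.89 CPM in Cisplatin stim libraries and 0 in all others. In endothelium it had 17 UMIs, with 4.28 ± 3.72 CPM (SD, n = 3) in Cisplatin nonstim and 0 in Cisplatin stim. Nothing is read from counts this low.

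The sequences around the starts of Plin4, Plin5 and Plin2 are shown because the first pair lie side by side and both had their highest oligodendrocyte levels in Cisplatin stim, while Plin2 was lowest in that cell type. Each is a RefSeq window of 250 bases before to 50 after an annotated start (GRCm38.p6), written on the minus strand, 5′ to 3′. Capitals mark matches, on either strand, to the nuclear receptor core AGGTCA, the glucocorticoid receptor core TGTTCT or the hypoxia response core ACGTG. Plin4 is chr17:56109733-56110032, Plin5 is chr17:56117499-56117798 and Plin2 is chr4:86670010-86670309, all on the minus strand.
Plin4: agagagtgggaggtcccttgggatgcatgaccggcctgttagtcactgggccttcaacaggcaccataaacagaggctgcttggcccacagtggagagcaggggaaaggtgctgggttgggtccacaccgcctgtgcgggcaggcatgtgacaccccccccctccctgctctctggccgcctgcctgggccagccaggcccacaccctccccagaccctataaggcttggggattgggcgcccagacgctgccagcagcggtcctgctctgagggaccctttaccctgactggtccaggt
Plin5: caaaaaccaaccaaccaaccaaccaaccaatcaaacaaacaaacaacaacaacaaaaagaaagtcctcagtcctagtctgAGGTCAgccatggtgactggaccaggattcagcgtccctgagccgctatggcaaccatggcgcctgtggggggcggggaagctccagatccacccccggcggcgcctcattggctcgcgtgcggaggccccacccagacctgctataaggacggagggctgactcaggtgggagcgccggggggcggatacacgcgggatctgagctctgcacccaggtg
Plin2: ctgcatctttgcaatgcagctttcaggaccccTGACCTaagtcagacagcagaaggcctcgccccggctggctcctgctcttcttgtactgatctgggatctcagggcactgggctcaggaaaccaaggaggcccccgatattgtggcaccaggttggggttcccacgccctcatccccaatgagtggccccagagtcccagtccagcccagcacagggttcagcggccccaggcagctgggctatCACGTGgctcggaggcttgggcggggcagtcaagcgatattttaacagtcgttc

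The Plin4 window held no match to the 3 motifs, and neither did that of Plin3. The Plin5 window held 1 AGGTCA match, as did a second annotated window of that gene, and the Plin2 window held 1 AGGTCA match and 2 overlapping ACGTG matches that form CACGTG. Of 32851 windows of the same length, 16.3% held AGGTCA, 19.0% TGTTCT and 19.6% ACGTG. A match only describes these letters.

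The other genes of droplet metabolism were taken from 7 lists with 131 genes, and those tested were adjusted over all genes of the cell type. In oligodendrocytes the 14 tested genes of droplet formation and triglyceride synthesis had 0 calls by edgeR and by DESeq2 between Cisplatin nonstim and PBS nonstim, and also 0 between Cisplatin stim and Cisplatin nonstim, with 3 unadjusted p under 0.05 in each. Their median log2 fold changes were −0.03 and 0.07, beside 0.00 and 0.01 for all genes. Between Cisplatin stim and PBS stim 2 were lower, Acsl3, which activates fatty acids at droplets, by −0.67 ± 0.13 (edgeR adjusted p = 0.00166), and Mogat1, a monoacylglycerol acyltransferase, by −1.77 ± 0.58 (edgeR adjusted p = 0.0445), the latter kept in 5 of 21 alternatives. Of all oligodendrocyte genes, 6.25, 0.991 and 14.5% were called in these comparisons, in the order given. The 2 calls of 14 lie near the last share, so nothing is read from them about the list.

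Of the 14 tested genes of lipolysis and droplet proteins in oligodendrocytes, Pnpla2 stood apart. Pnpla2 encodes adipose triglyceride lipase, the enzyme that takes the first fatty acid off a stored triglyceride, and perilipin 5 is known to bind it. Its oligodendrocyte level was 31.8 ± 1.05 CPM (SD, n = 3) in PBS nonstim, 24.2, 28.4 and 30.2 in PBS stim, 64.9, 59.7 and 66.2 in Cisplatin nonstim and 274, 130 and 106 in Cisplatin stim. As for Plin4, each Cisplatin nonstim library lay above all PBS libraries and each Cisplatin stim library above all others.

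Pnpla2 rose by 1.02 ± 0.20 between Cisplatin nonstim and PBS nonstim (edgeR adjusted p = 0.00546) and by 1.34 ± 0.19 between Cisplatin stim and Cisplatin nonstim (edgeR adjusted p = 0.000752). Between Cisplatin stim and PBS stim it rose by 2.49 ± 0.22 (edgeR adjusted p = 2.41e-07). Its interaction of 1.47 ± 0.30 was not called (edgeR adjusted p = 0.0669). The first call was lost without a batch term and with the ribosomal RNA-like covariate, and the other 2 held under all 21 alternatives. Pnpla2 was also called between Cisplatin stim and PBS stim in microglia (0.76 ± 0.13, edgeR adjusted p = 0.000957), endothelium (0.79 ± 0.18, edgeR adjusted p = 0.0185) and astrocytes (1.12 ± 0.27, edgeR adjusted p = 0.0203), calls kept in 19, 16 and 12 of 21 alternatives.

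The partners of this lipase in oligodendrocytes did not pass the test. G0s2, which inhibits it, stood at 25.8 ± 4.69 CPM in PBS nonstim (SD, n = 3), 22.9 ± 3.71 in PBS stim and 32.5 ± 6.10 in Cisplatin stim. Its estimate between Cisplatin stim and PBS stim was 0.46 ± 0.20 (edgeR adjusted p = 0.127). Hilpda, a hypoxia-induced inhibitor of the same lipase, stood at 5.19 ± 1.30, 3.82 ± 1.23 and 5.63 ± 2.82 CPM in these groups. Its estimate in the same comparison was 0.57 ± 0.44 (edgeR adjusted p = 0.428). In this list 2 genes were higher and 2 lower between Cisplatin stim and PBS stim, where 14.5% of all oligodendrocyte genes were called. The lower ones were Mgll, the monoacylglycerol lipase, by −0.65 ± 0.19 (edgeR adjusted p = 0.0234), and Spg20, the droplet protein spartin, by −0.59 ± 0.13 (edgeR adjusted p = 0.0029). The other higher one was Mettl7a1, by 0.54 ± 0.13 (edgeR adjusted p = 0.00687). Of these calls, that of Mgll was kept in 15 of 21 alternatives, that of Mettl7a1 in 19 and that of Spg20 in 20.

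Targets of the PPARs split in oligodendrocytes. Of 20 tested, 3 were higher and 3 lower between Cisplatin stim and PBS stim, where 14.5% of all oligodendrocyte genes were called in either direction. Pdk4, the kinase that turns off pyruvate dehydrogenase, rose by 1.94 ± 0.30 (edgeR adjusted p = 0.000178), and it rose by 1.22 ± 0.26 between Cisplatin stim and Cisplatin nonstim (edgeR adjusted p = 0.0247), a call kept in 13 of 20 alternatives. Its level was 5.53 ± 2.44, 4.65 ± 2.84, 7.58 ± 3.69 and 17.7 ± 3.43 CPM (SD, n = 3) in group order. Pdk4 is also on the list of glucocorticoid response genes described below and is counted in both lists. Ech1, a peroxisomal and mitochondrial isomerase of fatty acid oxidation, rose by 0.68 ± 0.10 (edgeR adjusted p = 0.000101). Acadl, a long-chain acyl-CoA dehydrogenase, fell by 1.01 ± 0.12 (edgeR adjusted p = 1.23e-05), and Cat, catalase, fell by 0.77 ± 0.16 (edgeR adjusted p = 0.00195).

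Of the PPARs and their partners, 6 genes passed the count filter in oligodendrocytes, but the receptors Ppara and Pparg did not. Ppara had 14 UMIs and Pparg 1 UMI in all oligodendrocytes, and of 50 tests of PPARs and partners over the 9 types edgeR called 0 in any comparison. DESeq2 called 1 between Cisplatin nonstim and PBS nonstim, where 4 had an unadjusted p under 0.05 in edgeR. Lpl, the enzyme that Angptl4 inhibits, had 44 UMIs in endothelium and did not pass the count filter. The lipoprotein lipase system had 1 call over the 9 types, Lrp1 in microglia, between Cisplatin stim and PBS stim, kept in 13 of 21 alternatives.

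Genes of the hypoxia response had 3 of 16 tested genes higher in endothelium between Cisplatin nonstim and PBS nonstim, and 6 of 16 between Cisplatin stim and PBS stim, with 0 lower. Of all endothelial genes, 0.945% and 2.53% were called in these comparisons. Adm, the vasodilator adrenomedullin, rose by 1.68 ± 0.25 (edgeR adjusted p = 0.000934) and by 2.19 ± 0.29 (edgeR adjusted p = 0.000221). Both calls were lost with the ribosomal RNA-like covariate, where the estimates were 1.01 and 1.55, and kept under the other 20 alternatives. Stimulation in cisplatin mice gave 0 calls among the 16 by edgeR and by DESeq2, with 5 unadjusted p under 0.05. In oligodendrocytes 8 of 17 were called between Cisplatin stim and PBS stim, against 14.5% of all genes. Hk2, a hexokinase, rose by 1.73 ± 0.25 there (edgeR adjusted p = 0.000104). Pfkfb3 was lower in Cisplatin nonstim than in PBS nonstim, by −0.87 ± 0.21 (edgeR adjusted p = 0.0197), kept in 14 of 21 alternatives. Over the 9 types 7 of 123 were higher and 3 lower between these 2 groups. Between Cisplatin stim and PBS stim 15 were higher and 4 lower. Of all gene and type pairs 1.64 and 3.89% were called.

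Glucocorticoid response genes had the most calls. In oligodendrocytes 13 of 18 were higher between Cisplatin nonstim and PBS nonstim, 12 between Cisplatin stim and Cisplatin nonstim and 14 between Cisplatin stim and PBS stim, with 0 lower in each, against 6.25, 0.991 and 14.5% of all genes called. Their medians were 0.90, 1.10 and 1.81, beside 0.00, 0.01 and 0.01 for all genes. The list holds genes with almost no counts in PBS. Sult1a1 had 0.538 and 0.471 CPM in PBS nonstim and PBS stim, against 6.86 and 26.8 in Cisplatin nonstim and Cisplatin stim. Such a gene passes the count filter through cisplatin libraries and can hardly come out lower than in PBS. The counts and medians against PBS rest in part on such genes. Fam107a, an actin-associated stress gene, stood at 11.5 ± 6.17, 7.49 ± 2.41, 30.9 ± 13.7 and 83.1 ± 23.3 CPM (SD, n = 3) in group order. It rose by 1.44 ± 0.20 between Cisplatin stim and Cisplatin nonstim (edgeR adjusted p = 0.000752). The list also holds Cdkn1a, better known as a p53 target that stops the cell cycle, which rose by 3.44 ± 0.32 in that comparison (edgeR adjusted p = 1.06e-05), and the metallothioneins Mt1 and Mt2, which also respond to metals. In endothelium 3 of 16 were higher and 2 lower between Cisplatin nonstim and PBS nonstim, where 0.945% of all genes were called. Between Cisplatin stim and PBS stim 5 of 16 were higher and 0 lower in this type, against 2.53%. For stimulation in cisplatin mice edgeR and DESeq2 gave 0 calls in endothelium, with 8 unadjusted p under 0.05, against 0.16%. Stimulation in PBS mice gave 0 calls among the 680 tests of list genes over all types by edgeR and by DESeq2, with 28 unadjusted p under 0.05. The glucocorticoid list shares Pdk4 with the list of PPAR targets. It was drawn up knowing results of these libraries, so its counts are not independent evidence of a direction.

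Genes whose level ran most like that of Plin4 over the 12 oligodendrocyte libraries were Fam107a (Pearson r of log2 CPM 0.980), Map7d2 (0.977), Phyhd1 (0.977), Gpd1 (0.976) and Scrg1 (0.975), among 7396 genes with a mean of at least 10 CPM. Gpd1, glycerol-3-phosphate dehydrogenase, makes the glycerol backbone used in triglycerides. These libraries share groups, batches and depth, so the r values are a description. Over the 12 cell types, Plin5 ran most like Ttc21a (0.969), Armc4 (0.960) and Mapk15 (0.958), and Angptl4 most like Ptges (0.965) and Wfdc1 (0.953). Plin3 ran most like Ech1 (0.907), and Plin2 most like Irgm1 (0.899). Dnajb2 ran most like Plin4 over cell types (0.916).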

How the data were processed

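Single-cell RNA was counted with 10x Genomics 3' chemistry from dissociated hippocampi, per the labels' protocols. Per the submitters' processing notes, which give no roles, the tools were Cell Ranger 5.0.0 and Scanpy and the build was mm10. The authors deposited raw UMI counts for 19834 cells, with the authors' library, cell type and cluster per cell (other columns deposited with them were not used), and no doublet call was made here.

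Here, UMIs were added up over the cells of each type in a library. Libraries with under 10 cells of a type were left out, and types in which every group kept at least 2 libraries were fitted (9 of 12). A quasi-likelihood model was fitted over all genes with edgeR 4.0.16 (R 4.3.3), using TMM, filterByExpr, the 4 groups and the batch as terms. This code was tested on simulated data. Adjusted p is Benjamini-Hochberg within a type and comparison, and SE is the estimate over the root of F. Shares carry exact binomial 95% intervals, and 3 counts is the floor. The p-values measure the spread between libraries, some of which pool animals.

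The members, the 7 lists and the rule for named genes were chosen with earlier results of these data known. The rule names, per comparison and list, up to 4 called genes of lowest adjusted p in oligodendrocytes and up to 2 elsewhere, and 9 lipid genes as values; a selection is printed, and 1 marker of the oligodendrocyte list and 1 lipid gene are not reported here; the marker was left out of its sums. Same-numbered libraries deviated together in oligodendrocytes between Cisplatin nonstim and Cisplatin stim (r 0.163 to 0.38), PBS nonstim and Cisplatin nonstim (0.188 to 0.333) and PBS nonstim and PBS stim (0.125 to 0.394); the labels tie replicate 1 alone to a batch of its own, so this pairing comes mainly from the values. A fit with the replicate number as a block changed no Plin4 call. Between PBS stim and Cisplatin stim the lowest was 0.088. The 21 alternatives comprised leaving out each of 12 libraries, batch, block, size factors, DESeq2 1.42.0, filters, cell minimum (30), mitochondrial cells (above 10%), second batch alone and a ribosomal RNA-like covariate. Promoter windows came from RefSeq (GRCm38.p6) by symbol, which matched 4 of the 5 members.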

Additional observations from a re-analysis of the deposited data

Results flagged for a closer look

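Plin4 in oligodendrocytes differed between the drug arms in its estimate for stimulation. The interaction of drug and stimulation was 2.50 ± 0.40 (log2, SE) with 3 libraries per group. The estimate for stimulation was 1.65 ± 0.18 in cisplatin mice and −0.85 ± 0.37 in PBS mice. Plin4 was chosen with this difference known, so the value is a description.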

How the results depend on the processing

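For the 5 comparisons of Plin4 in oligodendrocytes and the Cisplatin stim comparisons of Angptl4 in endothelium, 134 estimates under the alternatives stayed on their side of the threshold, 6 gained a call and 7 lost it. With the ribosomal RNA-like covariate Plin4 between Cisplatin nonstim and PBS nonstim was 1.99 and uncalled. Its interaction was 2.60 and uncalled with no batch term, and 1.97 to 2.83 as each library was left out, uncalled without PBS stim replicate 3 (2.58). Angptl4 in endothelium between Cisplatin stim and Cisplatin nonstim was called with the replicate block (1.41), without the count filter (1.34) and with the covariate (1.61), and ranged from 0.94 to 2.05 as libraries were left out; against PBS stim it was 0.46 and uncalled with the covariate, and 1.43 to 1.86 as libraries were left out. By replicate number, the correlations between endothelial libraries of the cisplatin groups were 0.085 to 0.207, all positive, against 0.163 to 0.38 in oligodendrocytes. The block changed no other member call.

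Calls among list genes moved more. Between Cisplatin nonstim and PBS nonstim they numbered 44, and 12 with no batch term, 74 without the filter, 80 at 30 cells, 127 in the second batch alone, 2 with the covariate and 19 to 67 as libraries were left out. Between Cisplatin stim and Cisplatin nonstim they numbered 17, and 2, 37 and 4 to 19 with no batch term, no filter and libraries left out. Between PBS stim and PBS nonstim they numbered 0, and 5 without the filter, 1 at 30 cells, 2 in the second batch alone and 0 to 1 as libraries were left out. Between Cisplatin stim and PBS stim they numbered 78, and 51 with no batch term and 34 with the covariate. The interaction had 0 with edgeR (63 at an unadjusted p under 0.05), and 2 with DESeq2, 11 without the filter, 2 in the second batch alone, 1 with the covariate and 0 to 1 as libraries were left out. Spg20 in oligodendrocytes between Cisplatin nonstim and PBS nonstim reversed to 0.025 with the covariate. In the second batch the ribosomal RNA-like share ran with the drug. Where a call between drug arms was lost with the covariate, covariate and drug cannot be told apart. The cause was not tested for any of the changes listed here.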
